A study of Caenorhabditis elegans with 12 samples.

Results

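The middle stretches of autosomes II, III and V were followed through the RNA of 2 genotypes and 3 cell fractions of Caenorhabditis elegans. They were chosen by position alone, from 5090001 to 10190000 on II (5.1 Mb), from 4590001 to 9190000 on III (4.6 Mb) and from 6970001 to 13950000 on V (6.98 Mb). They held 5100, 4600 and 6980 windows of 1000 bases, 16680 of the 100257 windows in the deposited table. The tested animals carried the allele tm1200 of hrde-1, and N2, the standard wild type, was set against them. All were young adult hermaphrodites kept at 23 C for 3 or 4 generations. RNA came from whole animals, from a nuclear-enriched pellet and from the cytoplasmic-enriched layer of a sucrose cushion, with ribosomal RNA removed and no poly(A) selection. The 6 groups had 2 libraries apiece, generation 3 and generation 4, which makes 12.

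A worm autosome is not uniform along its length. Its centre is rich in genes that every cell uses and recombines rarely, while its arms hold more repeats, more heterochromatin marked on histone H3 lysine 9 and more recombination. HRDE-1 is an Argonaute protein of germline nuclei that is loaded with small RNAs and silences matching loci by blocking transcription and by heterochromatin marks, and its loss lets such loci be transcribed. The authors' table marks windows as GRTS and GRH, short in this field for loci that germline nuclear RNAi keeps transcriptionally silent and for loci where it places heterochromatin. The sources used here do not say how windows were marked. The marks may rest on these very libraries and cannot serve as separate evidence of a direction.

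Values are the authors' normalized coverage, with 0.1 as the lowest value, and behave like shares of a library, not like amounts of RNA. Depth per library was 191230 to 908166 read equivalents, lowest in N2 cytoplasm with 191230 and 263410. Window tests used limma on log2(coverage + 1) over the 43933 windows of the table with a mean of at least 1, and calls needed an adjusted p under 0.05. That filter kept 2445 windows of the centre of II, 2705 of III and 2728 of V, 7878 together. In RNA from whole animals, fewer cells of a type and less RNA per cell cannot be told apart. Windows are named by position alone, without genes, exons or introns, because no source used here names the genome build, and for the same reason expression of hrde-1 itself was not analysed here.

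All 3 centres carried more RNA than the arms of their own chromosome, and they kept a fixed order among themselves. Over the 12 libraries the mean coverage per window was 16.7 to 20.1 in the centre of III, 9.85 to 13.1 in that of II and 7.70 to 9.60 in that of V. These ranges do not overlap, so the centre of III was the highest and that of V the lowest in every library of either genotype and any fraction. The ratio of centre to arms averaged 1.91 on III (1.75 to 2.03), 1.58 on V (1.41 to 1.68) and 1.57 on II (1.50 to 1.64). It was above 1 in 12 of 12 libraries on each chromosome (exact paired permutation test over libraries, two-sided, p = 0.000488, the smallest it can give, and 0.00146 adjusted over the 9 tests of centres). The libraries are fractions of the same genotypes and generations, so this p measures only how steady the ratio was over libraries. The share of windows past the filter was 58.8% in the centre of III against 55.4% in its arms, 47.9% against 45.9% on II, and 39.1% against 31.6% on V.

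**Figure D1:**
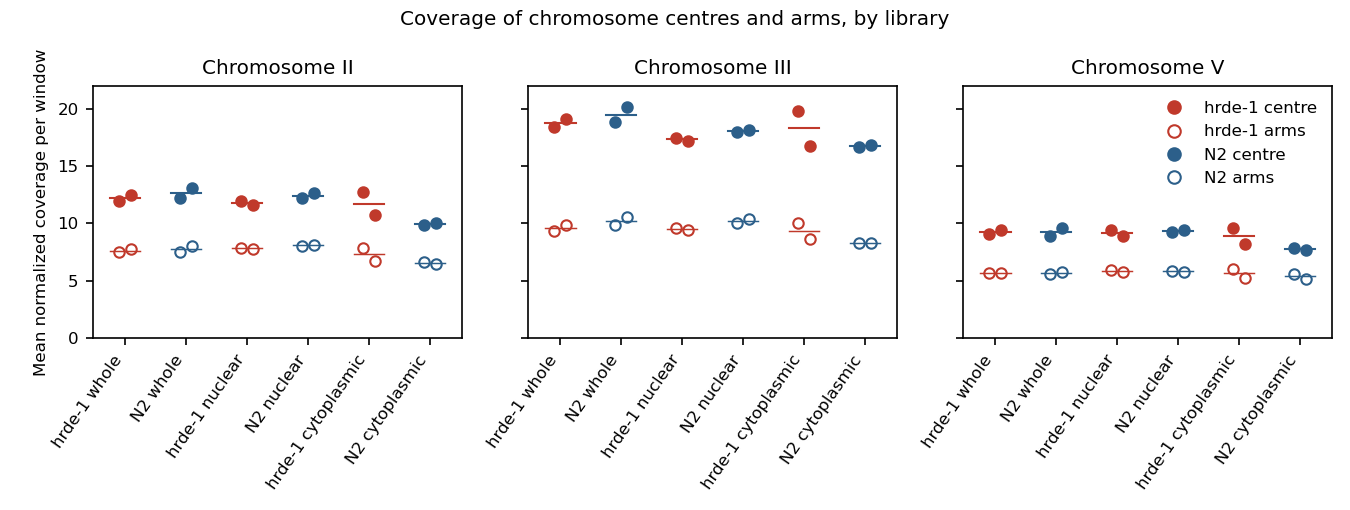
Mean normalized coverage per window (vertical axis) of the centre (filled points) and the arms (open points) of chromosomes II, III and V in each of the 12 libraries, grouped by genotype and fraction, with a line at the mean of the 2 libraries. The centre lies above the arms in all 12 libraries on each chromosome.

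The genotypes overlapped in whole RNA and lay apart for some centres in the fractions. In whole RNA the centre of II averaged 12.2 ± 0.356 in hrde-1 and 12.7 ± 0.595 in N2 (SD, n = 2 each, as for all SD values below). The centre of III averaged 18.8 ± 0.482 in hrde-1 whole RNA and 19.5 ± 0.875 in N2, and that of V 9.25 ± 0.211 in hrde-1 and 9.26 ± 0.487 in N2. In whole RNA the libraries of the genotypes overlapped on all 3 chromosomes. In nuclear RNA the means were 11.8 ± 0.260 in hrde-1 and 12.4 ± 0.316 in N2 for II, 17.3 ± 0.208 in hrde-1 and 18.1 ± 0.126 in N2 for III, and 9.17 ± 0.376 in hrde-1 and 9.30 ± 0.128 in N2 for V. Both hrde-1 nuclear libraries lay below both of N2 on II and III, and on V they overlapped. In cytoplasmic RNA the centre of II averaged 12.8 and 10.7 in the hrde-1 libraries of generations 3 and 4, against 9.85 and 10.1 in N2. The centre of III averaged 19.9 and 16.8 in hrde-1 cytoplasm, against 16.7 and 16.8 in N2, and that of V 9.57 and 8.21 in hrde-1, against 7.87 and 7.70 in N2. The hrde-1 libraries differed widely from each other, and they were above both N2 libraries on II and V.

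The share of a library's signal that fell in a centre removes such differences in level between libraries. The centre of V held 6.92% and 6.96% of the signal in hrde-1 whole RNA of generations 3 and 4, against 6.75% and 6.84% in N2. In cytoplasmic RNA it held 6.79% in both hrde-1 libraries, against 6.19% and 6.40% in N2, and in nuclear RNA 6.94% and 6.79% in hrde-1, against 6.72% and 6.79% in N2. The genotypes did not overlap in whole and cytoplasmic RNA and overlapped in nuclear RNA. Over the fractions the share was 6.86% in hrde-1 and 6.62% in N2, 0.248 percentage points higher in hrde-1 (exact permutation test within fractions, two-sided, p = 0.0185, adjusted over 9 tests 0.0417). The 9 tests include those of centre against arms, whose lower p-values eased this adjustment, and without them the adjusted p would be larger. By fraction, the difference was 0.496 percentage points in cytoplasmic, 0.143 in whole and 0.106 in nuclear RNA. With labels permuted within fraction and generation, the adjusted p was 0.141 (exact permutation test), above the threshold. That scheme allows far fewer arrangements, so the threshold is hard to reach after adjustment, and this setting alone does not decide whether the difference holds. With GRTS windows left out, a setting chosen after the data were seen, the difference was 0.203 percentage points and the adjusted p 0.0625 (exact permutation test). Leaving out the generation 4 hrde-1 whole library gave an adjusted p of 0.0833, and leaving out the generation 3 nuclear library of hrde-1 or of N2 gave 0.0625 (exact permutation tests).

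The centres of II and III showed no such difference over all fractions. The centre of II held 6.58% in hrde-1 and 6.44% in N2 (difference 0.141 percentage points, exact permutation p = 0.407). The centre of III held 9.07% in hrde-1 and 9.06% in N2 (difference 0.00812 percentage points, exact permutation p = 1). On II the direction differed between fractions. The share was 6.63% and 6.50% in hrde-1 cytoplasmic RNA, against 5.68% and 6.14% in N2, but 6.66% and 6.76% in hrde-1 whole RNA, against 6.81% and 6.84% in N2. Every hrde-1 library was above every N2 library in the cytoplasm and below them in whole RNA. On III, too, both hrde-1 libraries were below both N2 libraries in whole RNA (9.285% and 9.373%, against 9.489% and 9.503%). They were also below them in nuclear RNA (8.51% and 8.686%, against 8.69% and 8.695%), and the genotypes overlapped in cytoplasmic RNA. Differences within a single fraction were not tested.

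Between compartments, the centre of III took a smaller share of nuclear than of cytoplasmic signal. In hrde-1 the shares were 8.51% and 8.69% in nuclei, against 9.33% and 9.21% in the cytoplasm. In N2 they were 8.69% and 8.70% in nuclei, against 8.70% and 9.27% in the cytoplasm. All 4 nuclear libraries lay below all 4 cytoplasmic ones, by a mean of 0.481 percentage points. In N2 the closest libraries were almost equal, with 8.695% in nuclei of generation 4 and 8.699% in cytoplasm of generation 3. The exact permutation test within genotypes gave p = 0.0556, the smallest this design allows, so the threshold of 0.05 could not be reached. For II the nuclear share was higher by 0.305 percentage points (6.54% against 6.23%, exact permutation p = 0.278) and for V by 0.265 (6.81% against 6.54%, exact permutation p = 0.167).

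RNA was spread unevenly within each centre. Across libraries, 11.3% to 24.2% of the signal of the centre of III came from its 10 highest windows, as did 7.07% to 12.6% on II and 8.14% to 11.5% on V. The highest share on each chromosome was in the generation 3 N2 cytoplasmic library. In bins of 100 kb, averaged over the 6 groups, the highest were 5190001 to 5290000 on III with 6.74% of its centre's signal, 11070001 to 11170000 on V with 5.54% and 7990001 to 8090000 on II with 4.89%. The lowest were 8670001 to 8770000 on V with 0.0706%, 7490001 to 7590000 on II with 0.204% and 8490001 to 8590000 on III with 0.330%. The 3 lowest bins of V had mean coverages of 0.540, 0.649 and 0.718, and its highest bin had 34.3, against 29.5 in the highest bin of II.

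**Figure D2:**
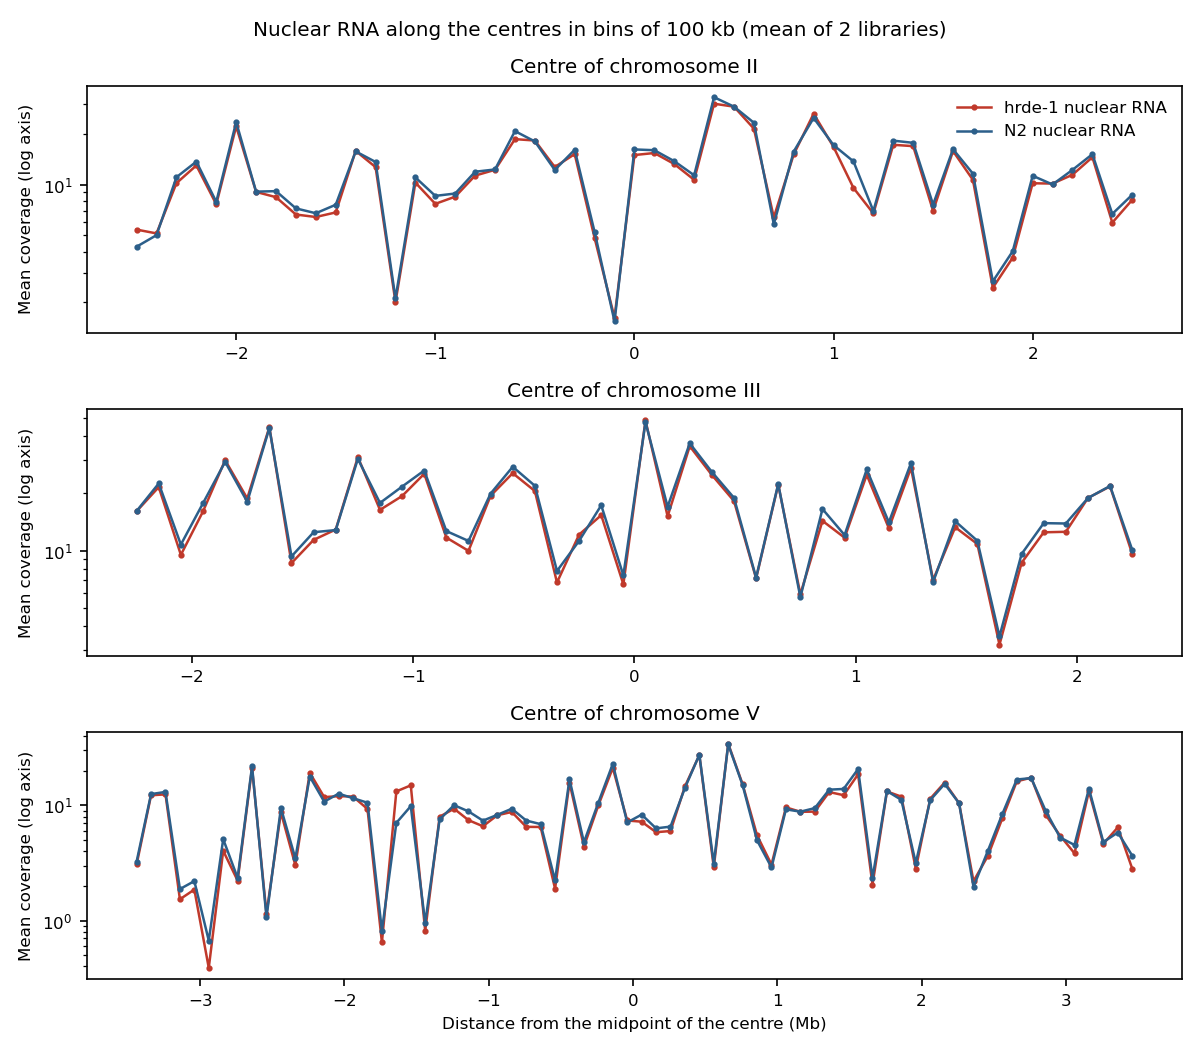
Mean normalized coverage of nuclear RNA in bins of 100 kb (vertical log axis) along the centres of II, III and V, by distance from the midpoint of the centre in Mb (horizontal axis), as the mean of 2 libraries per genotype. The hrde-1 and N2 lines follow each other along all 3 centres, and the largest differences between their means are in the 2 bins of V that hold the paired stretches, with 13.2 and 14.9 in hrde-1 against 7.05 and 9.85 in N2.

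The highest windows of the centres were high in both genotypes. On III the window from 6970001 averaged 2441 in hrde-1 whole RNA and 2367 in N2. Its nuclear mean was 1783 in hrde-1 and 1637 in N2, and its cytoplasmic mean was 2100 in hrde-1 and 2383 in N2. On II those from 8570001 and 8144001 averaged 771 and 671 in hrde-1 whole RNA, against 871 and 706 in N2. On V the window from 10966001 read 1112 and 1000 in hrde-1 nuclei, against 346 and 293 in hrde-1 cytoplasm, and 1058 and 923 in N2 nuclei, against 302 and 343 in N2 cytoplasm. It was about as much higher in the nucleus in hrde-1 (ratio above the lowest value 3.31) as in N2 (3.07), while its neighbour from 10967001 had ratios of 1.40 in hrde-1 and 1.73 in N2.

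In hrde-1 against N2 whole RNA, 6 windows of the centres rose and 0 fell, all 6 on V and all marked GRTS. That is 0.0762% of the centre windows tested and 0.220% of those of V, beside 0.100% of all windows tested (0.0979% higher and 0.00228% lower). On II and III limma called 0 windows, with 76 and 75 windows at an unadjusted p under 0.05. These are 3.11% and 2.77% of those tested there, beside 3.72% of all windows tested. Restricting the fit to the libraries compared left 0 calls in the centres, and dropping the filter gave 55, of which 33 were higher and 22 lower. Without the hrde-1 whole library of generation 3 or 4 the count was 1 or 2, and without either N2 cytoplasmic library it was 12.

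In nuclear RNA 26 windows of V rose, beside 1 of III that rose and 1 of II that fell. The 26 are 0.953% of the windows of V tested, where 0.296% of all windows tested were called (0.287% higher and 0.00910% lower). Of the 26 windows, 21 were marked GRTS. The count over the 3 centres, 28, was 0 or 1 with the generation 3 or 4 nuclear library of hrde-1 left out and 2 without either N2 nuclear library. It was 1 with a pseudocount 10 times smaller and 56 with one 10 times larger. Without a filter it was 237, of which 88 were higher and 149 lower (37.1% higher, against 96.4% of the 28), so the balance of directions turned round.

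All 26 nuclear and all 6 whole RNA windows of V lay in a pair of stretches of 21 kb that resemble each other, from 8826001 to 8847000 and from 8868001 to 8889000, 42 kb apart. Of their 252 values, 164 were equal within 0.01 at the same place of both stretches, among them 69 of the 157 above the lowest value. Reads from near-identical copies cannot be assigned to either, so the stretches are uncertain as separate loci and may show the same signal more than once. Together they held 30 of the 34 GRTS windows of the centre of V, 15 each. Outside them, limma called 0 of the 2686 windows tested in whole RNA and 0 in nuclear RNA, with 75 and 99 at an unadjusted p under 0.05 and a lowest adjusted p of 0.123 in either fraction. Over all windows tested, 3.72% and 4.31% were at an unadjusted p under 0.05. The bounds of the stretches were drawn after the calls were seen, so the absence of calls outside them is a description.

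The mark density of V also turned on this pair. The centre of V held 4.87 GRTS windows per Mb, against 3.59 in its arms, while the centre of II held 0.392 against 2.85 and that of III 0.435 against 0.871. With the second stretch left out the centre of V held 2.73 per Mb, and with both left out 0.577. Without the pair, chosen after the values were seen, the density on V was close to that of the other centres, where nothing was left out. GRH marks numbered 6 on II, 10 on III and 13 on V, with 2, 0 and 3 of them also marked GRTS.

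The stretches carried 0.851% ± 0.0767 of the signal of the centre of V in hrde-1 whole RNA and 0.031% ± 0.014 in N2. In nuclear RNA they carried 1.72% ± 0.0268 in hrde-1 and 0.072% ± 0.0136 in N2, and in cytoplasmic RNA 0.66% ± 0.183 in hrde-1 and 0.00844% ± 0.0119 in N2. In each fraction both hrde-1 libraries were above both N2 libraries.

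Within a stretch, RNA in hrde-1 differed between a short core found in every fraction and a longer flank found mostly in the nucleus. The boundaries of these segments were drawn after the values were seen, so the segments are described without a test of their own. The core of the first stretch, 4 windows from 8828001 to 8832000, averaged 60.8 and 51.9 in hrde-1 whole RNA, against 2.20 and 1.15 in N2. In nuclear RNA it averaged 61.2 and 60.5 in hrde-1, against 3.79 and 2.20 in N2, and in cytoplasmic RNA 63.7 and 36.3 in hrde-1, against 1.25 and 0.1 in N2. The core was thus high in all 6 hrde-1 libraries and at or below 3.79 in all 6 N2 libraries, with 1 read equivalent in N2 cytoplasm and 199 in hrde-1. The largest differences by limma were at 8830001 in whole RNA (log2 difference 5.98 ± 0.597 SE, adjusted p = 0.000568) and at 8829001 in cytoplasmic RNA (5.67 ± 0.548, adjusted p = 0.000332). In the second stretch the window from 8873001 had a log2 difference of 5.39 ± 0.513 in whole RNA (adjusted p = 0.000477, limma). Its call held with any single library left out, while that at 8830001 was lost without the generation 3 or the generation 4 hrde-1 whole library (adjusted p up to 0.0589). Restricting the fit to whole RNA of both genotypes ended these calls in both stretches (adjusted p 0.236 and 0.370), as did thinning all libraries to equal depth (0.242 and 0.418).

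Next to the core, the 5 windows from 8832001 to 8837000 averaged 25.7 and 23.3 in hrde-1 nuclear RNA, against 0.572 and 0.874 in N2. In whole RNA they averaged 3.62 and 4.17 in hrde-1, against 0.66 and 0.34 in N2, and in cytoplasmic RNA 0.66 and 0.33 in hrde-1, with 2 read equivalents, against 0.1 in both N2 libraries. Here the nuclear libraries alone reached high values, 6.43 times those of whole RNA above the lowest value, where the core had a ratio of 1.08. The ratio of nuclear to cytoplasmic reads in hrde-1 was 58.4 (95% exact interval 15.9 to 486, counting error only), against 1.18 (0.986 to 1.42) in the core.

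The outer flank, 10 windows from 8837001 to 8847000, followed the same pattern at lower levels. It averaged 13.7 and 13.6 in hrde-1 nuclear RNA, against 0.745 and 0.835 in N2, and 1.48 and 2.02 in hrde-1 whole RNA, against 0.24 and 0.26 in N2. Its nuclear to cytoplasmic read ratio in hrde-1 was 43.6 (95% interval 14.7 to 214), from 176 and 3 reads. Of these 10 windows 4 carried the GRTS mark, the outermost pair from 8845001 and 8846001 among them, and the 6 without it lay between marked windows. On the other side of the core, the 2 windows from 8826001 to 8828000 averaged 21.2 and 18.9 in hrde-1 nuclear RNA, against 1.18 and 0.54 in N2, with 1 cytoplasmic read in hrde-1.

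In nuclear against cytoplasmic RNA, 33 of the 42 windows of both stretches were called higher in hrde-1 and 1 in N2 (limma), beside 4.63% and 14.0% of all windows tested. This count is a description, since windows can pass the filter through their hrde-1 reads alone. A fit restricted to the hrde-1 nuclear and cytoplasmic libraries left 0 of these calls (adjusted p 0.0791 at 8834001, 8874001 and 8875001). The test of the difference between genotypes in this contrast called 0 of the 33 GRTS windows of V tested (limma, median 2.55 on the log2 scale, 23 at an unadjusted p under 0.05, lowest adjusted p 0.214).

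**Figure D3:**
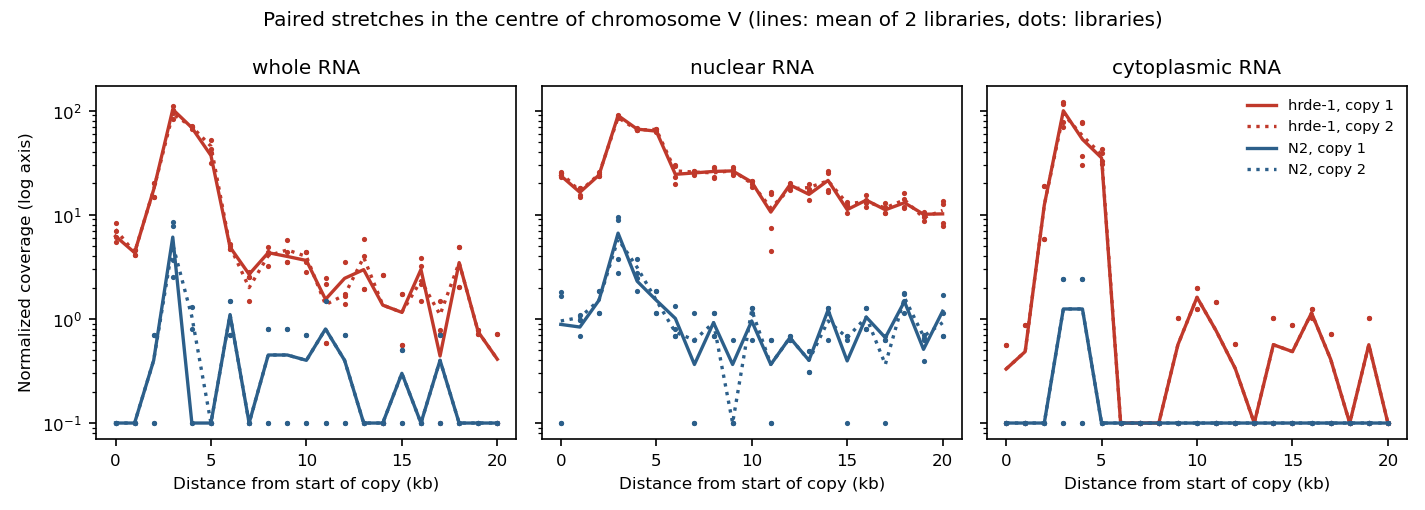
Normalized coverage (vertical log axis) by distance in kb from the start of each of the paired stretches of chromosome V (copy 1, solid lines, and copy 2, dotted lines), for whole, nuclear and cytoplasmic RNA, with hrde-1 in red and N2 in blue; lines are means of 2 libraries and dots are libraries. In hrde-1 the core between 2 and 6 kb is high in every fraction, while the flank beyond it averages 24.5 and then 13.6 in nuclear RNA, 3.90 and 1.75 in whole RNA and 0.495 and 0.457 in cytoplasmic RNA.

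The nuclear calls in the stretches depended on the nuclear libraries. The regions from 8826001, 8871001 and 8880001 held 13, 7 and 4 called windows. Without either hrde-1 nuclear library 0 of these stayed called (limma, adjusted p up to 0.0716, 0.0599 and 0.253 at the window of each region with the lowest adjusted p). Without either N2 nuclear library 1, 1 and 0 stayed called. A pseudocount 10 times smaller left 0, 1 and 0, and thinning left 0 in each. The calls of single windows from 8868001 and 8845001 ended without 6 and 12 of the 12 libraries (adjusted p up to 0.481 and 0.474), with the smaller pseudocount (0.403 and 0.514) and after thinning (0.118 and 0.476).

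Outside the stretches the centres held 8 GRTS windows. On II the 2 windows from 5098001 to 5100000, which carry both marks, averaged 32.9 and 29.4 in hrde-1 nuclear RNA, against 5.41 and 9.04 in N2, and 20.7 and 15.1 in hrde-1 cytoplasmic RNA, against 0.1 and 4.83 in N2. Their hrde-1 libraries lay above their N2 libraries in each fraction, and neither window was called (limma, adjusted p at or above 0.112 in each genotype comparison). The other 4 GRTS windows of V lay from 8482001, 11485001, 12646001 and 12647001. They read at most 16.7 in any library. The window from 12646001 did not pass the filter, and the other 3 were tested and not called between genotypes. Of the 22 GRH windows of the centres without a GRTS mark that were tested, limma called 0 in each genotype comparison, with 5 at an unadjusted p under 0.05 in whole, 2 in nuclear and 8 in cytoplasmic RNA. Over all windows tested, 3.72%, 4.31% and 16.8% were at an unadjusted p under 0.05 in these fractions. The median log2 differences of the GRH windows were 0.63 for whole, 0.04 for nuclear and 0.81 for cytoplasmic RNA, beside medians of 0.00, -0.11 and 0.25 over all windows tested.

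On III, a locus from 6634001 to 6649000 held the 2 GRTS windows of that centre. Its calls between genotypes fell on unmarked windows that did not adjoin them. Within the locus the window from 6639001 read 0.1 in every hrde-1 library. The window from 6645001 read 13.6 and 14.1 in hrde-1 nuclear RNA, against 0.1 in both N2 libraries. It read 4.21 and 3.81 in hrde-1 whole RNA, against 0.1 in both N2 libraries, and 0.1 in all 4 cytoplasmic libraries. It was at least 8.28-fold higher in hrde-1 nuclear RNA, counted against 3 reads over both N2 libraries (log2 difference 3.76 ± 0.550 SE, limma, adjusted p = 0.00924). The marked windows from 6647001 and 6648001 read 38.7 and 12.9, and 25.5 and 14.4, in hrde-1 nuclear RNA, against 0.1 and 1.15, and 2.75 and 2.26, in N2. Their hrde-1 libraries differed more from each other than those of the called window, and they were not called (limma, adjusted p = 0.169 and 0.383). The call at 6645001 ended without any of the 4 nuclear libraries (highest adjusted p 0.155), with a pseudocount 10 times smaller (0.0591) and after thinning (0.124).

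The unmarked windows at the other end of this locus, from 6634001 to 6637000, were high in every hrde-1 fraction. They averaged 16.3 and 11.6 in hrde-1 cytoplasmic RNA, against 1.63 and 0.1 in N2, and 2 of the 3 were called (limma, lowest adjusted p 0.0274). In whole RNA they averaged 10.1 and 11.2 in hrde-1, against 1.03 and 0.5 in N2, and in nuclear RNA 15.5 and 15.8 in hrde-1, against 1.67 and 2.90 in N2. In each fraction both hrde-1 libraries were above both N2 libraries. Reads in hrde-1 were 18.2 times those in N2 in the cytoplasm (95% interval 3.85 to 918, from 41 reads and 1) and 15.9 times in whole RNA (5.30 to 82.4, from 49 and 3). Both cytoplasmic calls ended without any one of the 6 hrde-1 libraries (adjusted p up to 0.156 at 6634001), without a filter (0.0748 there) and under quantile normalization (0.129).

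In cytoplasmic RNA 74 windows of the centres rose in hrde-1 and 13 fell, 21 and 7 on II, 20 and 2 on III and 33 and 4 on V. The 87 are 1.10% of the centre windows tested, beside 0.867% of all windows tested (0.803% higher and 0.0637% lower). The median log2 difference was 0.27 on II, 0.32 on III and 0.28 on V, beside 0.25 over all windows. Median scaling moved that median by -0.298 and called 36 windows higher and 26 lower. With 1 library of hrde-1, N2 whole or N2 nuclear RNA left out, the count was 14 to 34, and without the generation 3 or 4 N2 cytoplasmic library it was 236 or 948.

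**Figure D4:**
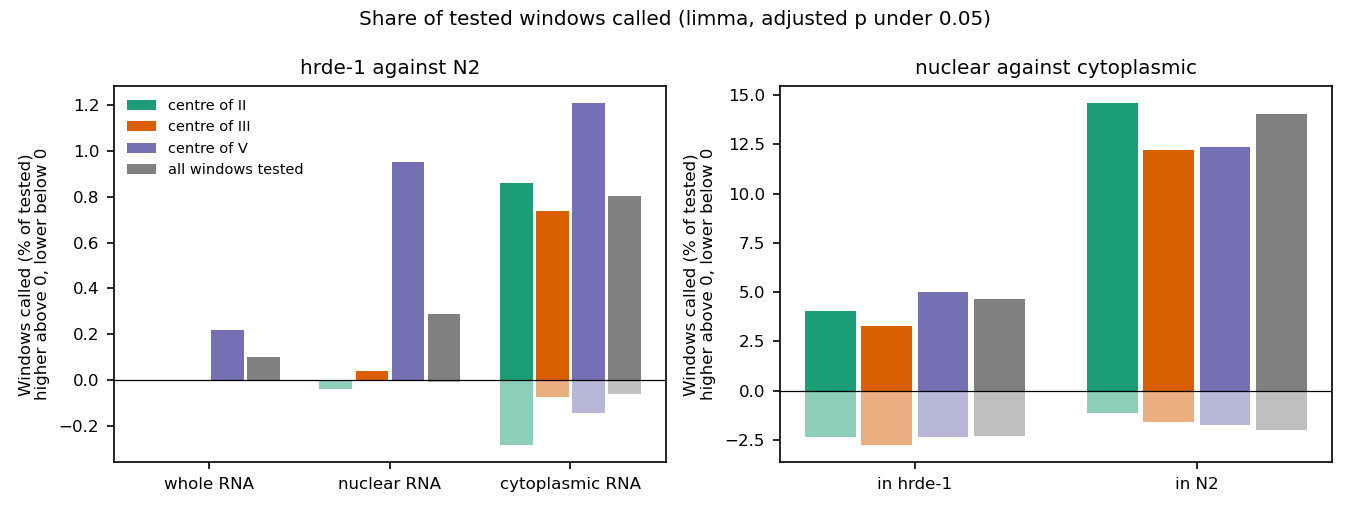
Share of tested windows called by limma at an adjusted p under 0.05 (vertical axis in percent, higher above 0 and lower below 0), in the centres of II, III and V and in all windows tested. Left: hrde-1 against N2 in each fraction, where V is at 0.953% higher in nuclear RNA. Right: nuclear against cytoplasmic RNA within each genotype, where the centres are at 3.29% to 5.02% higher in hrde-1 and 12.2% to 14.6% higher in N2.

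These cytoplasmic windows were mostly isolated and thinly covered in N2. All 21 higher windows of II stood alone, as did 18 of the 19 higher regions of III and 20 of the 24 of V. In N2 cytoplasm 36 of the 74 held 0 read equivalents and 52 held at most 3, and those 2 libraries had the lowest depth of the 12. Thin coverage there was common, since a mean of 66.4% of all centre windows, tested or not, lay at 0.1 in an N2 cytoplasmic library. The share among tested windows that were not called was not counted. In whole RNA, 37 of the 74 had a log2 difference above 0, with a median of 0.01, and for the 66 without a mark the median was -0.09 in whole and 0.10 in nuclear RNA. Whole RNA thus showed no common direction at these windows, and the part of depth in the calls was not tested. All 87 calls were lost when the fit was restricted to the libraries compared, and 2 windows were called after thinning all libraries to the depth of the shallowest, a setting chosen after the data were seen. An example is III from 5000001, which read 13.2 and 13.9 in hrde-1 cytoplasm, against 0.1 in both N2 libraries, but 15.2 and 13.7 in hrde-1 whole RNA, against 11.3 and 12.1 in N2. With 13 reads against 0, it was at least 2.40-fold higher in hrde-1 cytoplasm, and its call (adjusted p = 0.00194, limma) held with any single library left out.

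At a pair of loci on V without a GRTS mark, hrde-1 libraries lay above N2 in whole RNA as well as in the cytoplasm. From 10853001 to 10856000, coverage was 51.2 and 51.5 in hrde-1 cytoplasm, against 7.73 and 6.39 in N2, and all 3 windows were called. In whole RNA it was 42.1 and 43.4 in hrde-1, against 11.3 in both N2 libraries, and in nuclear RNA 29.0 in both hrde-1 libraries, against 15.8 and 16.6 in N2. In each fraction the hrde-1 libraries agreed closely and lay above N2. Coverage in hrde-1 was 7.36 times that of N2 in the cytoplasm, 3.81 times in whole RNA and 1.80 times in the nucleus. Its window from 10855001 had a log2 difference of 5.05 ± 0.483 SE (limma, adjusted p = 0.000332), and no single library ended the call. A fit restricted to cytoplasmic RNA did (adjusted p 0.172), as did thinning (0.444), and the whole and nuclear differences were not called.

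The other locus lay 8 windows further on, from 10864001 to 10867000, and its window from 10865001 carries the GRH mark. It averaged 11.9 and 12.4 in hrde-1 cytoplasm, against 0.1 and 1.15 in N2, a read ratio of 23.0 (95% interval 3.25 to 786, from 35 reads and 1). In whole RNA it averaged 12.7 and 13.9 in hrde-1, against 3.36 and 2.50 in N2, a ratio of 4.67, while nuclear RNA held 9.90 and 9.24 in hrde-1, against 9.34 and 7.05 in N2. The genotypes were apart in the cytoplasm and in whole RNA and close in the nucleus. Of its 3 windows 2 were called, and the lowest adjusted p was 0.00945 (limma). Both calls ended without the generation 4 hrde-1 cytoplasmic library (adjusted p 0.0990 at 10864001) and under quantile normalization (0.0602 there).

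The windows that fell in the cytoplasm included a locus of 6 windows on II and some of the highest windows of the centres. On II, 5 of the 6 windows from 8784001 to 8790000 fell. They averaged 16.9 and 12.0 in hrde-1 cytoplasm, against 92.5 and 66.2 in N2, and the ratio of nuclear to cytoplasmic coverage was 1.95 in hrde-1 and 0.918 in N2. The loss was present in the other fractions too, with 28.4 and 30.2 in hrde-1 whole RNA, against 75.03 and 70.9 in N2, and 29.0 and 27.3 in hrde-1 nuclear RNA, against 79.5 and 66.2 in N2. At the window from 8787001 no single library ended the cytoplasmic call (adjusted p 0.000352, limma), but a fit restricted to cytoplasmic RNA did (0.107), as did thinning (0.640). Of the 5 calls, 3 were left without either hrde-1 whole library and 2 without the generation 4 hrde-1 cytoplasmic library. The window from 8788001, the only window of the centres that fell in nuclear RNA, averaged 88.4 in hrde-1 and 211 in N2 (log2 difference -1.24 ± 0.224, adjusted p = 0.0302), and its nuclear call ended without any of the 8 whole or nuclear libraries (0.545), under median scaling (0.0769), with a pseudocount 10 times smaller (0.114) and after thinning (0.160).

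On III a pair of windows 180 kb apart, from 5031001 and 5211001, held nearly equal values, with a ratio between them of 1.01 to 1.06 in all 12 libraries. Whether they share reads was not tested, and they are uncertain as separate loci. The window from 5031001 read 2960 and 3330 in hrde-1 cytoplasm, against 4676 and 4831 in N2 (log2 difference -0.60 ± 0.111 SE, limma, adjusted p = 0.0281). In whole RNA it read 1878 and 1967 in hrde-1, against 1779 and 1809 in N2, and in nuclear RNA 1376 and 1496 in hrde-1, against 1195 and 1082 in N2. So hrde-1 was lower in the cytoplasm and above N2 in the other fractions, where no call was made. The cytoplasmic call ended without 9 of the 12 libraries (highest adjusted p 0.111), without a filter (0.852) and under quantile normalization (0.363).

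Some high windows of the other centres were also lower in the cytoplasm of hrde-1. II from 6968001 read 582 and 816 in hrde-1 cytoplasm, against 1253 and 1102 in N2 (limma, adjusted p = 0.0479), and 363 and 355 in hrde-1 whole RNA, against 327 in both N2 libraries. V from 9086001 read 307 and 435 in hrde-1 cytoplasm, against 736 and 644 in N2 (adjusted p = 0.0393), and 191 and 203 in hrde-1 whole RNA, against 187 in both N2 libraries. V from 11174001 and 8235001 averaged 153 and 152 in hrde-1 cytoplasm, against 327 and 307 in N2. Each of these 4 calls ended without 10 or 11 of the 12 libraries (highest adjusted p 0.200) and under quantile normalization (0.249, 0.183, 0.123 and 0.154 in the order given).

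Nuclear against cytoplasmic RNA gave far more calls, and the centres lay near the table as a whole. In hrde-1, 325 centre windows were higher in the nucleus and 196 lower, 6.61% of those tested beside 6.93% of all windows tested (4.63% higher and 2.30% lower). In N2, 1026 were higher and 118 lower, 14.5% beside 16.0% (14.0% higher and 1.99% lower). By chromosome, 99, 89 and 137 windows of II, III and V were higher in hrde-1 nuclei and 57, 75 and 64 lower, and 357, 331 and 338 were higher in N2 nuclei and 28, 43 and 47 lower. The median log2 difference was 0.14, 0.10 and 0.21 in hrde-1 for II, III and V, beside 0.30 over all windows, and 0.62, 0.65 and 0.71 in N2, beside 0.82. Median scaling moved the medians over all windows by -0.350 in hrde-1 and -0.661 in N2. It called 183 higher and 365 lower in hrde-1 and 283 higher and 493 lower in N2, so the split between higher and lower turned round with the scaling. Quantile normalization called 231 higher and 160 lower in N2.

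Many of these windows were thinly covered in the cytoplasm. Of the windows higher in nuclei, 209 of 325 in hrde-1 and 722 of 1026 in N2 held at most 3 read equivalents there, and the part of depth was not tested. Of all centre windows, tested or not, a mean of 59.9% lay at 0.1 in a hrde-1 cytoplasmic library and 66.4% in an N2 one. Without either hrde-1 nuclear or cytoplasmic library the hrde-1 total of 521 was 172 to 296, and without the generation 3 or 4 N2 cytoplasmic library it was 852 or 840. Without the generation 3 or 4 N2 nuclear library the N2 total of 1144 was 245 or 217. The genotypes had 183 higher windows in common, 56.3% of the hrde-1 list and 17.8% of the N2 list, and 86 lower windows, 43.9% and 72.9%. The overlap over all windows tested was not counted, so these shares describe the centres and cannot be called particular to them. The difference of this contrast between genotypes was called in 0 windows of the centres (limma, lowest adjusted p 0.181, beside 0.00% of all windows tested), with 1011 of 7878 at an unadjusted p under 0.05. That is 12.8%, beside 11.5% of all windows tested. A pseudocount 10 times larger called 23, no filter 233, and leaving out the generation 3 or 4 N2 cytoplasmic library 62 or 495.

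Some windows lay on the same side in both genotypes. III from 8862001 and 8863001 were neighbours found almost only in nuclei. The window from 8863001 read 70.2 and 62.5 in hrde-1 nuclei, against 7.55 and 1.42 in hrde-1 cytoplasm, and 47.2 and 69.8 in N2 nuclei, against 0.1 in both N2 cytoplasmic libraries. It was 15.1 times higher in hrde-1 nuclei and at least 10.5-fold higher in N2 nuclei, with log2 differences of 3.89 and 5.73 (limma, adjusted p = 0.000614 and 7.85e-06). As for every hrde-1 call of this kind, a fit restricted to the hrde-1 nuclear and cytoplasmic libraries ended the hrde-1 call (0.0986). The genotypes overlapped in nuclear RNA, and whole RNA read 13.6 and 13.7 in hrde-1 and 16.2 and 11.7 in N2. On V the window from 9343001 read 84.9 and 74.1 in hrde-1 nuclei, against 16.9 and 16.2 in hrde-1 cytoplasm, and 94.5 and 115 in N2 nuclei, against 0.1 and 19.0 in N2 cytoplasm. Its N2 cytoplasmic libraries differed widely. In hrde-1 it was not called (adjusted p 0.130), and its N2 call ended without the generation 4 N2 nuclear library (adjusted p 0.0610), without a filter (0.0831), in a fit restricted to N2 nuclei and cytoplasm (0.153) and after thinning (0.189).

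At the other extreme, III from 7278001 was found almost only in the cytoplasm. It read 5.88 and 15.4 in hrde-1 nuclei, against 266 and 461 in hrde-1 cytoplasm, and 6.0 and 10.6 in N2 nuclei, against 577 and 516 in N2 cytoplasm. Nuclear coverage above the lowest value was 0.029 of the cytoplasmic in hrde-1 and 0.015 in N2, with log2 differences of -5.05 and -5.92 (limma, adjusted p = 3.37e-06 and 2.98e-07). On V, 12002001 read 5.88 and 3.93 in hrde-1 nuclei, against 183 and 150 in hrde-1 cytoplasm, and 8.36 and 7.46 in N2 nuclei, against 231 and 203 in N2 cytoplasm. On II, 5577001 averaged 19.1 in hrde-1 nuclei, against 171 in hrde-1 cytoplasm, and 13.7 in N2 nuclei, against 304 in N2 cytoplasm. In all 3 the nuclear and cytoplasmic libraries did not overlap in either genotype, and no single library ended a call. Whole RNA lay between the compartments, with 76.5 in hrde-1 and 56.3 in N2 at 5577001 and 49.1 in hrde-1 and 47.7 in N2 at 12002001.

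**Figure D5:**
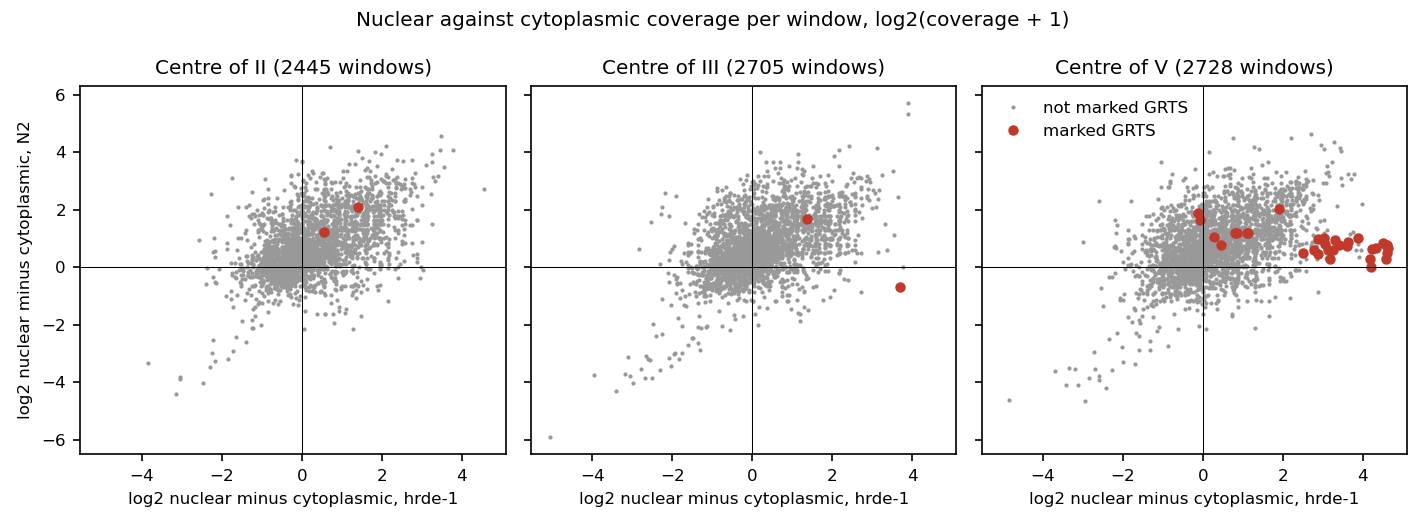
Difference of nuclear minus cytoplasmic RNA per window on the log2(coverage + 1) scale, in hrde-1 (horizontal axis) and in N2 (vertical axis), for the 2445, 2705 and 2728 windows tested in the centres of II, III and V; each point is a window and red points carry the GRTS mark. Most GRTS windows of V lie far to the right near 0 on the vertical axis, with medians of 3.19 in hrde-1 and 0.79 in N2, while the grey points form a cloud that rises from lower left to upper right.

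Set beside each other, the windows of V marked GRTS moved in hrde-1 by fraction as follows. Their mean coverage over 34 windows was 15.6 ± 1.47 in hrde-1 whole RNA and 0.703 ± 0.136 in N2, 27.6 ± 1.24 in hrde-1 nuclear RNA and 1.43 ± 0.264 in N2, and 12.2 ± 4.51 in hrde-1 cytoplasmic RNA and 0.235 ± 0.191 in N2. Of the 33 that passed the filter, those called higher were 6 for whole, 21 for nuclear and 8 for cytoplasmic RNA, all of them in the paired stretches. Over all windows tested, 0.0979%, 0.287% and 0.803% were called higher in these fractions. Within hrde-1, 24 of the 33 were higher in the nucleus than in the cytoplasm, and within N2 1 was, beside 4.63% and 14.0% of all windows tested. In N2 cytoplasm 30 of the 34 windows were at 0.1 in both libraries, where a mean of 73.7% of all windows of the centre of V were at 0.1 per library. Counts over the 33 are a description, since a window low in N2 can pass the filter through its hrde-1 reads alone.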

How the data were processed

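RNA was measured in 12 libraries of 6 groups, per the labels' protocols. The table deposited by the authors holds a coverage signal, already normalized, for 100257 windows of 1000 bases, never below 0.1. Bowtie 0.12.7 is the tool named per the submitters' processing notes. Genome build, strand and scale were not given in the sources used here, nor was the handling of reads with several matches. Chromosome V ends at 20920000 in the table and is annotated to 20922732 in WBcel235, so no annotation was used and no sequences are shown.

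The value of 1 read was taken from the step between low values, 1.05 to 4.58 per library. Of the values above the lowest and below 40, 79.8% to 89.7% lay within 0.0065 of a whole multiple of it. Read equivalents are coverage above 0.1 over this step. Folds against a group without reads use 3 reads over the group. Intervals cover counting error only.

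limma 3.58.1 in R 4.3.3 (lmFit, eBayes with a trend) was fitted to log2(coverage + 1) for all 12 libraries in 6 groups, as a two-sided test. Benjamini-Hochberg adjustment ran over the 43933 windows whose mean was at least 1, at a threshold of 0.05. For low windows, differences of log2(coverage + 1) are smaller than the true change. Centre shares, which are coverage above 0.1 in the centre over the same sum of the table, and centre to arm ratios were tested by exact permutation, adjusted over 9 tests. The fit was tested on simulated data.

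Windows called the same way with a gap of at most 1 window formed regions. Named were, per centre and genotype comparison, the 5 higher and 3 lower regions with the most called windows that moved alike in both generations, per genotype the 3 highest and 3 lowest called windows of nuclear against cytoplasmic RNA, and the 3 highest windows. The examples needed are given. The marked windows, the III locus, the V stretches and their segments were added after the values were seen. The centres, lists and tests were chosen with earlier results of these data known. The labels do not say whether libraries came from separate cultures, so the p-values reflect only how far these libraries spread, and that spread may be technical. Alternatives were other pseudocounts, filters and scalings, a fit of only the groups compared, a replicate block, thinning to 190796 reads and leaving out libraries.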

Additional observations from a re-analysis of the deposited data

Results flagged for a closer look

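The share of signal in the centre of II moved in opposite directions between genotypes in different fractions. Both hrde-1 libraries lay above both N2 libraries in cytoplasmic RNA and below them in whole RNA, and the difference of hrde-1 minus N2 was 0.771 percentage points larger in cytoplasmic than in whole RNA (0.656 against -0.115). Against nuclear RNA, where both hrde-1 libraries (6.46% and 6.50%) lay below both N2 libraries (6.51% and 6.69%), it was 0.774 percentage points larger (0.656 against -0.118). These differences between fractions were not tested. Beside them, the N2 cytoplasmic libraries held 191230 and 263410 read equivalents, the fewest of all, and the 10 highest windows held 12.6% and 10.1% of the signal of that centre in them, against 7.63% and 7.99% in the hrde-1 cytoplasmic libraries. Their part in the result was not tested.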

How the results depend on the processing

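In the order whole, nuclear and cytoplasmic RNA of hrde-1 against N2, then nuclear against cytoplasmic RNA in hrde-1 and in N2, then the difference between genotypes, the centres had 6, 28, 87, 521, 1144 and 0 calls. A pseudocount 10 times smaller gave 3 in whole, 1 in nuclear and 187 in cytoplasmic RNA, and one 10 times larger 56 in nuclear RNA and 23 for the difference between genotypes. No filter gave 55, 237 (88 higher and 149 lower, against 27 and 1) and, for the difference between genotypes, 233, and a minimum mean of 10 gave 7 in nuclear RNA and 555 for N2. Median scaling gave 183 higher and 365 lower in hrde-1, against 325 and 196, and 283 higher and 493 lower in N2, against 1026 and 118, so both splits turned round. Quantile normalization gave 10, 54, 21 and, for N2, 391. Restricting the fit to the libraries compared left 0 in whole RNA, in cytoplasmic RNA and in hrde-1. Chosen after seeing the data, thinning to equal depth gave 0, 0, 2, 88, 127 and 0, and leaving out both N2 cytoplasmic libraries gave 12 in whole RNA and 824 in hrde-1. With 1 library left out, where the lone library of a group is assumed to vary like the others, the counts ranged over 1 to 12, 0 to 31, 14 to 948, 172 to 852, 217 to 1436 and 0 to 495. The share of the centre of III in hrde-1 minus N2 reversed to -0.0249 percentage points without the 10 highest windows and to -0.00559 with trimmed bounds, and was -0.0866 to 0.103 with 1 library left out. That of V was 0.203 without GRTS windows and 0.213 to 0.283 with 1 library left out (adjusted p 0.0208 to 0.0833, exact permutation). Deviations of the same generation correlated by 0.011 to 0.0793 between groups. Counting error is large in low windows, so these correlations cannot decide whether libraries of a generation are paired. With generation as a replicate block the counts were 7, 24, 101, 574, 1225 and 0, and the V share difference of 0.248 had an adjusted exact permutation p of 0.141. The blocked permutation allows far fewer arrangements, so that p is hard to bring under the threshold. The cause of these changes was not tested. Depth limits the precision of the cytoplasmic values, since 1 read was worth 4.58 and 3.15 in the N2 cytoplasmic libraries. The windows named for a comparison were chosen from calls in these same data. An unchanged sign under the alternatives was therefore likely beforehand and is only a description. The sign of the log2 difference at each named window was the same under every alternative run, with 1109 of these values past the threshold and 328 not.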
